A study of Homo sapiens with 18 samples.

Results

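Curcumin was added to oxaliplatin (OXA) in the colorectal cancer cell line HT29 and in HTOXAR3, an HT29-derived line with acquired resistance to OXA, and the difference between the lines in the effect of that addition was measured gene by gene. The line difference was the log2 change in HTOXAR3 (OXA plus Curcumin minus OXA alone) minus the same log2 change in HT29. It could be tested for 36203 of the 36204 gene names on the non-control spots of the arrays, and 49 of them (0.135%) were called, which here means a Benjamini-Yekutieli (BY) adjusted p below 0.05 in limma together with a fold over 1.2. The changes called in the same direction in both lines, 1403 names, were taken as the shared response. The 4 groups were HT29 with 10 µM OXA, HT29 with 10 µM OXA plus 10 µM Curcumin, HTOXAR3 with 30 µM OXA and HTOXAR3 with 30 µM OXA plus 10 µM Curcumin, all for 24 h, with 3 arrays labelled as biological replicates in each group, so 12 of the 18 arrays of the series. The other 6 arrays held untreated cells of each line. No group received Curcumin without OXA, HTOXAR3 is a single derived line, and since OXA was given at a different dose to each line, line and OXA dose cannot be told apart in any line difference.

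Curcumin is a polyphenol of turmeric that reacts with protein thiols. Thiol-reactive compounds are known to release the transcription factor NRF2 from its inhibitor KEAP1, which turns on genes for glutathione synthesis, heme breakdown and carbonyl reduction, and to release the heat shock factor HSF1 from chaperones, which turns on HSP70 family genes. OXA is a platinum drug that binds DNA and blocks transcription and replication, and it is known to disturb the nucleolus.

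Levels are normalized log2 intensities of the brightest probe of each gene name, changes and differences are on the same log2 scale, and a probe counts as well above background by the call of the scanner software. The share of non-control spots well above background ran from 56.9% to 63.6% over the 12 arrays, and the lowest correlation between arrays of one group was 0.986. Of 12 markers of colonic epithelium, 9 were well above background on all 12 arrays, among them *EPCAM*, *CDH1*, *KRT20* and *VIL1*, while *CDX2* was on 6, *CEACAM5* on 10 and *GPA33* on 4. Of 7 fibroblast markers none was above background on all 12 arrays, and *COL1A2*, *COL3A1*, *DCN* and *THY1* were on none. In these epithelial lines the 5 leukocyte markers *PTPRC*, *CD3E*, *CD14*, *CD68* and *ITGAM* were also above background on all 12 arrays, with group means of the 5 between 6.83 and 7.47 on the normalized log2 scale, and *CD68*, a lysosomal protein, rose with Curcumin in both lines (1.19 and 1.40). Of 4 endothelial markers, *VWF* and *CDH5* were above background on all 12 arrays, with group means of the 4 between 5.61 and 5.88. No marker of these cell types had a called line difference, and their part in the results was not tested. The arrays lay on 3 slides, of which slides 2 and 3 each held all 4 groups.

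Of 3785 names called in at least 1 line, 1403 were called in the same direction in both. In HT29, 1136 names rose (3.14% of those tested) and 866 fell (2.39%) when Curcumin was added to OXA. In HTOXAR3, 1602 rose (4.43%) and 1596 fell (4.41%). Both lines shared 840 rises (2.32%) and 563 falls (1.56%), and their contrasts use no array in common. Among the 19013 names well above background on all 12 arrays, 1077 rose and 862 fell in HT29. In HTOXAR3 1529 of these rose and 1549 fell, and in both lines 801 rose and 561 fell. Most members of the gene lists below were above background, where shares called are higher than the shares of all names set beside those lists. Over the 19013 names well above background on all 12 arrays, the changes in the lines had a Pearson r of 0.745 and a Spearman rho of 0.674, given as a description across genes, which are not independent replicates. By contrast, the line difference itself was called positive for 10 names (0.0276%) and negative for 39 (0.108%), with sizes from 0.57 to 3.51 and 22 of the 49 over 2-fold. These calls and the adjusted p-values given for single genes take no account of the replicate number, and 10 differences were called with it as a block within each line. At an unadjusted p below 0.05, 3526 names differed. The median line difference over all names was 0.01.

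**Figure D1:**
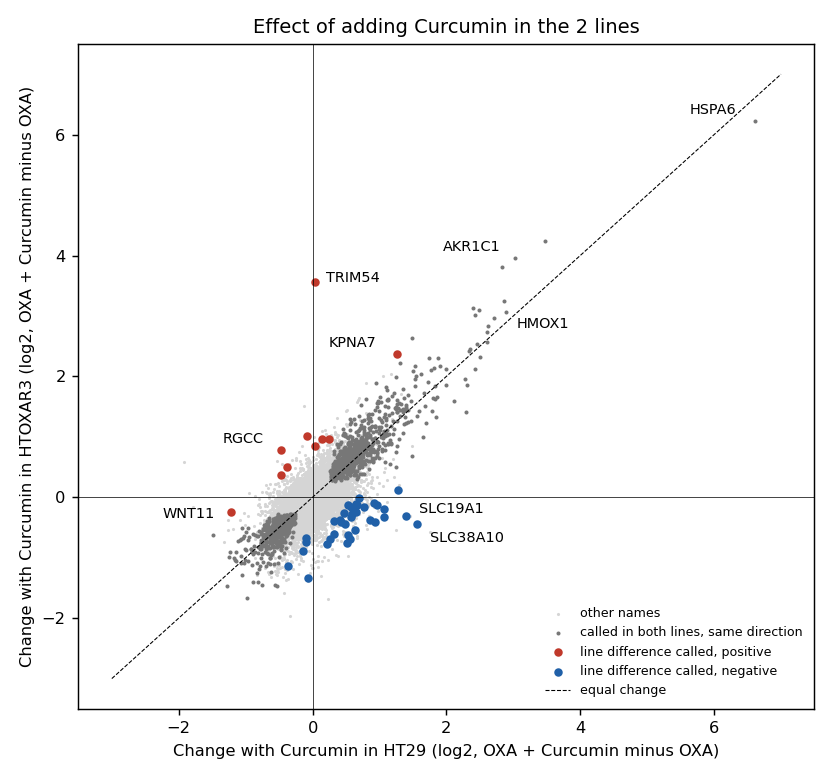
Log2 change with Curcumin in HT29 (horizontal axis) against that in HTOXAR3 (vertical axis) for the 19013 names well above background on all 12 arrays; each point is a gene name and the dashed line marks equal change. Names called in both lines (dark grey) follow the dashed line up to HSPA6, while the called line differences (red and blue) lie off it, with TRIM54 near 0 in HT29 and at 3.56 in HTOXAR3.

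Most calls in a single line came without a called difference. Of 2370 names called in only 1 line (587 in HT29 and 1783 in HTOXAR3), the line difference was called for 36, namely 18 of each kind, and was not called for 2334. Opposite calls were rare, with 12 names called up in one line and down in the other, and 11 of these had a called line difference. The exception was *MMP24*, a membrane-bound metalloproteinase, at -0.46 in HT29 and 0.40 in HTOXAR3 with a BY adjusted p of 0.0523 for the difference in limma. Only 2 called differences, *TGFBI* and *KPNA7*, lay among the shared changes, both with the same direction in each line and the larger change in HTOXAR3.

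Of the 49 names, 45 were well above background on all 12 arrays. The other 4 were *APOBEC3C* (10 arrays), *FBXO15* (8), *COL8A1* (6) and *XLOC_003821*. The last is a noncoding transcript that was above background on 0 of the 12 arrays and whose array values are not given. *COL8A1*, a collagen chain, was not well above background on any HT29 array, and its call rests on HTOXAR3, where it fell from 6.54, 6.34 and 6.47 to 5.11, 5.30 and 5.12. *APOBEC3C*, a cytidine deaminase of innate immunity, fell by 1.46 in HTOXAR3, from a mean level of 10.22 to 8.75. In HT29 its mean was 4.19 with OXA and 4.05 with Curcumin, where 1 of the 3 Curcumin arrays was above background, so a fall of that size could not have been measured there and its call rests on HTOXAR3.

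The largest line difference belonged to *TRIM54*, a muscle RING finger ubiquitin ligase that binds microtubules (probe at chr2:27530243-27530302, hg19). In HTOXAR3 its normalized log2 intensity was 5.94, 6.12 and 6.28 with OXA and 9.55, 9.57 and 9.89 with OXA plus Curcumin. In HT29 it was 9.53, 9.53 and 9.69 with OXA and 9.69, 9.74 and 9.45 with Curcumin. The groups did not overlap in HTOXAR3 and overlapped in HT29, and with Curcumin HTOXAR3 reached the level that HT29 had throughout. The rise in HTOXAR3 was 3.56 ± 0.12 (SE, n = 3), which is 11.8-fold, against 0.04 ± 0.12 in HT29, and the line difference was 3.51 ± 0.17 (limma, BY adjusted p = 3.52e-06). Untreated cells stood at mean levels of 9.63 in HT29 and 5.84 in HTOXAR3, so the resistant line was already low before treatment. One probe measured this gene.

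*RGCC*, a regulator of the cell cycle that binds CDK1, moved in opposite directions. It was 12.43, 12.55 and 12.51 in HT29 with OXA and 12.12, 11.96 and 11.96 with Curcumin added, and in HTOXAR3 it was 10.67, 10.75 and 10.60 with OXA and 11.44, 11.40 and 11.53 with Curcumin. Within each line the groups did not overlap. The fall in HT29 was -0.48 ± 0.08, the rise in HTOXAR3 0.78 ± 0.08 and the line difference 1.26 ± 0.11 (limma, BY adjusted p = 0.00148). Both lines had gained *RGCC* with OXA relative to untreated cells, by 2.43 in HT29 and 1.17 in HTOXAR3. *SAV1*, a scaffold of the Hippo kinase cascade, showed the same arrangement, with -0.47 in HT29, 0.37 in HTOXAR3 and a difference of 0.84 ± 0.11 (BY adjusted p = 0.0357).

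*WNT11*, a secreted ligand of noncanonical Wnt signalling, carried its change in HT29. It was 10.87, 10.92 and 10.99 there with OXA and 9.84, 9.71 and 9.59 with Curcumin, while HTOXAR3 held 11.65, 11.86 and 11.79 with OXA and 11.58, 11.49 and 11.49 with Curcumin. Only the HT29 arrays separated widely, with a change of -1.22 ± 0.08 (2.32-fold lower), and the HTOXAR3 change of -0.25 ± 0.08 was not called, with a line difference of 0.97 ± 0.11 (limma, BY adjusted p = 0.0121). *WNT11* was the only positive difference made by a called change in HT29 alone.

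The other positive differences came from rises in HTOXAR3. *KPNA7*, an importin alpha of nuclear import, rose in both lines, from 9.47, 9.48 and 9.61 to 10.95, 10.71 and 10.67 in HT29 and from 7.87, 7.88 and 7.76 to 10.11, 10.17 and 10.34 in HTOXAR3. These are 2.40-fold and 5.17-fold, a line difference of 1.11 ± 0.12 (BY adjusted p = 0.0101), and a second probe gave 1.19. *RNF39*, a RING finger gene of the MHC class I region, rose by 1.02 in HTOXAR3 and stood at -0.08 in HT29. *PTPRH*, a receptor tyrosine phosphatase, rose by 0.96 and *SEMA3B*, a secreted guidance ligand, by 0.85, where HT29 gave 0.14 and 0.03. *HOXC9*, a homeobox factor, rose by 0.50 in HTOXAR3 against an uncalled -0.39 in HT29, and the zinc finger gene *ZNF283* rose by 0.97 against an uncalled 0.24. All of the 10 positive differences except *WNT11* and *HOXC9* had a lower level in HTOXAR3 than in HT29 with OXA alone, with HTOXAR3 minus HT29 from -3.47 to -0.53. The OXA levels of both lines enter the line difference, so this is partly set by the choice of names on a positive difference.

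**Figure D2:**
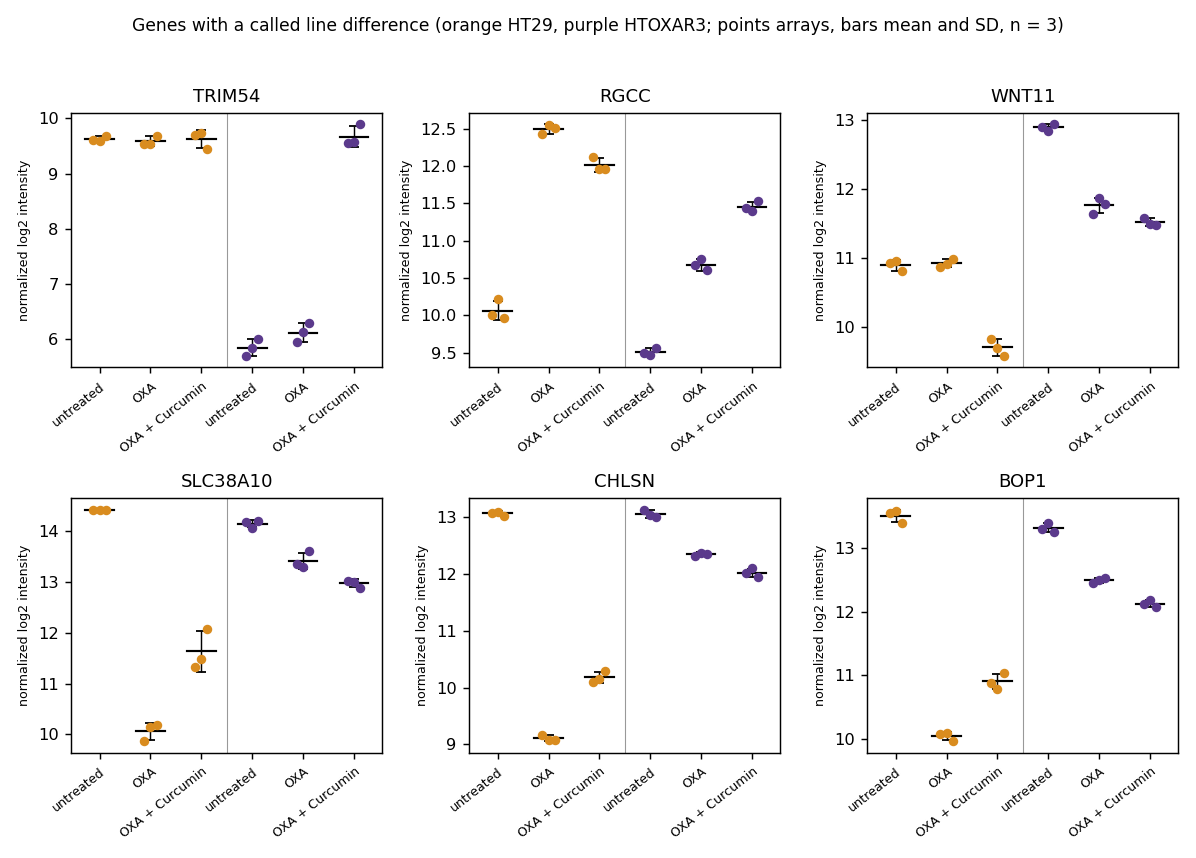
Normalized log2 intensity (vertical axes) of 6 genes with a called line difference in the 6 groups, HT29 in orange and HTOXAR3 in purple; points are the 3 arrays of a group and bars the mean and SD. TRIM54 rose only in HTOXAR3 with Curcumin, RGCC moved in opposite directions, and SLC38A10, CHLSN and BOP1 stood lower with OXA than untreated by far more in HT29 (-4.34 to -3.46) than in HTOXAR3 (-0.82 to -0.71).

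The negative differences had 3 forms. In 17 names Curcumin gave a called rise in HT29 and no call in HTOXAR3, in 12 it gave a called fall in HTOXAR3 and no call in HT29, and in 9 it gave a rise in HT29 and a fall in HTOXAR3. *TGFBI*, an extracellular matrix protein induced by TGF-beta, was the remaining name, with falls of -0.37 in HT29 and -1.14 in HTOXAR3.

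*SLC38A10*, of the sodium-coupled amino acid transporter family (probe at chr17:79218836-79218895, hg19), had the most negative difference among names above background on all 12 arrays. In HT29 it was 9.87, 10.14 and 10.19 with OXA and 11.33, 11.49 and 12.08 with Curcumin, and in HTOXAR3 it was 13.34, 13.29 and 13.59 with OXA and 13.02, 13.00 and 12.88 with Curcumin. All 3 HT29 arrays with Curcumin lay above those without, and all 3 HTOXAR3 arrays with Curcumin lay below. The rise in HT29 was 1.56 ± 0.15 (2.96-fold), the HTOXAR3 change of -0.44 ± 0.15 was not called, and the line difference was -2.00 ± 0.22 (limma, BY adjusted p = 0.011). A second probe of this gene, also above background on all 12 arrays, gave -0.12 ± 0.09, so the probes disagreed, and with the mean of all 3 probes the difference was -0.63 and not called.

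*SLC19A1*, the reduced folate carrier (chr21:46935085-46935144, hg19), went from 6.12, 6.16 and 6.41 to 7.41, 7.38 and 8.09 in HT29 and from 10.10, 10.10 and 10.23 to 9.84, 9.91 and 9.73 in HTOXAR3. Its line difference was -1.71 ± 0.21 (BY adjusted p = 0.0239), and its other probe gave -0.61. *CHLSN*, encoding cholesin and named C7orf50 on the array (chr7:1036922-1036981, hg19), was 9.17, 9.08 and 9.09 with OXA and 10.10, 10.15 and 10.29 with Curcumin in HT29. In HTOXAR3 it was 12.31, 12.37 and 12.35 with OXA and 12.01, 12.10 and 11.95 with Curcumin. Groups did not overlap within either line, and the rise of 1.07 ± 0.06 against a fall of -0.32 ± 0.06 gave a line difference of -1.39 ± 0.09 (BY adjusted p = 0.000107), the smallest p after that of *TRIM54*.

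*BOP1*, a PeBoW complex subunit needed to process ribosomal RNA for the large subunit, was the only member of the 15 gene lists used here with a called line difference. It was 10.07, 10.10 and 9.97 in HT29 with OXA and 10.88, 10.79 and 11.04 with Curcumin, and in HTOXAR3 it was 12.46, 12.50 and 12.53 with OXA and 12.13, 12.18 and 12.07 with Curcumin. This rise of 0.86 and fall of -0.37 gave a line difference of -1.23 ± 0.10 (limma, BY adjusted p = 0.00148). *TRIM54*, *RGCC*, *CHLSN* and *BOP1* were the 4 of 20 named differences whose call held in all 25 other settings. Each of the 4 had 1 probe and a difference over 2-fold, so taking the mean of all probes could not change its value. Under the 2-fold minimum these calls could not be lost, while smaller differences lost theirs by definition.

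A further 6 negative differences lay between -1.34 and -1.18. *ARFRP1*, a small GTPase of the trans-Golgi, and *FAAP100*, a Fanconi anemia core complex subunit, rose by 0.93 and 1.07 in HT29 and had uncalled changes of -0.41 and -0.20 in HTOXAR3, and the other *ARFRP1* probes, also above background on all 12 arrays, gave differences of -1.13 and -0.08. *HAGHL*, a glyoxalase II-like gene, and *PPP2R3B*, a regulatory subunit of protein phosphatase 2A, rose by 0.57 and 0.63 in HT29 and fell by 0.69 and 0.55 in HTOXAR3. *CFAP410*, a cilium gene, fell by 0.76 in HTOXAR3, with an uncalled 0.51 in HT29. *ALDH1L1*, the cytosolic 10-formyltetrahydrofolate dehydrogenase, differed from these in that HT29 gave -0.06 and the whole difference of -1.27 ± 0.17 (BY adjusted p = 0.0394) came from HTOXAR3, where it fell from 8.65, 8.69 and 8.93 to 7.48, 7.50 and 7.29.

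The rule did not use position, and the negative differences were unevenly placed. Of the 39, 23 (59.0%) had their probe within 3 Mb of a chromosome end in hg19 (counted from the first base of the short arm and from the outermost probe of the long arm, or from the long arm alone on chromosomes with no probe in their first 5 Mb), against 10.6% of 18875 placed names above background on all 12 arrays and 0 of the 10 positive differences. The median distance was 2.14 Mb for the negative differences, 52.4 Mb for the positive ones and 29.0 Mb for the names above background. Of the further names called only with Benjamini-Hochberg adjustment, 36.0% of 189 negative and 10.8% of 83 positive differences lay within 3 Mb. The 23 lay on 13 chromosome arms, with *SLC38A10*, *FAAP100*, *MRPL12* and *RPTOR* together on 17q, *SSU72*, *PRKCZ* and *FAAP20* on 1p, *SLC19A1*, *SLX9* and *CFAP410* on 21q, *PPP2R3B* and *DHRSX* on Xp, *PWWP3A* and *THOP1* on 19p and *BOP1* and *SLC33A2* on 8q. Neighbours of this kind are not independent, so the share is given as a description. It also rests on the brightest probe of each name. Other probes above background on all 12 arrays gave line differences of -0.12 for *SLC38A10*, -0.08 for *ARFRP1*, -0.23 for *PWWP3A*, -0.13 for *NKD2* and -0.12 for *FAAP20*. They gave 0.12 for *BRF1* and 0.17 for *PRKCZ*. Further such probes gave -1.16 for *CFAP410*, -1.13 for *ARFRP1*, -0.74 for *MRPL12* and -0.66 for *CTBP1*. For *SLX9* they gave -0.69 and -0.68, for *FAAP20* -0.64 and for *SLC19A1* -0.61. By distance, among names above background on all 12 arrays, 0.638% of names within 1 Mb of an end were called negative, 1.63% of those from 1 to 2 Mb, 1.26% of those from 2 to 3 Mb and 0 of 807 from 3 to 5 Mb, where the one further negative call was *XLOC_003821*, which was not above background. The shift was small for the bulk of genes, since the median line difference from 1 to 2 Mb was -0.06 over 735 names.

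On their brightest probes, these 23 genes were also far lower with OXA than untreated in HT29. Their OXA minus untreated value there ran from -4.81 (*SLC19A1*) to -1.08 (*RPTOR*) on the log2 scale, whereas in HTOXAR3 the OXA level differed from untreated by -1.07 to 0.19. With Curcumin added all 23 changes were above 0 in HT29, from 0.22 to 1.56, of which 20 were called, and all 23 still stood below untreated HT29. In HTOXAR3 22 of the 23 changes were below 0, with a median of -0.32, of which 8 were called. These signs are partly set by the choice of names on a negative line difference. *SLC38A10* stood at 14.41 in untreated HT29, 10.06 with OXA and 11.63 with Curcumin, and at 14.14, 13.41 and 12.97 in the same order in HTOXAR3. Over all 39 negative differences the median OXA minus untreated value was -1.46 in HT29 and -0.32 in HTOXAR3, against -0.01 and 0.01 for names above background. The OXA arrays enter both of these values and the Curcumin changes, which are therefore not independent of each other, and the part of the unequal OXA dose in them cannot be told apart.

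**Figure D3:**
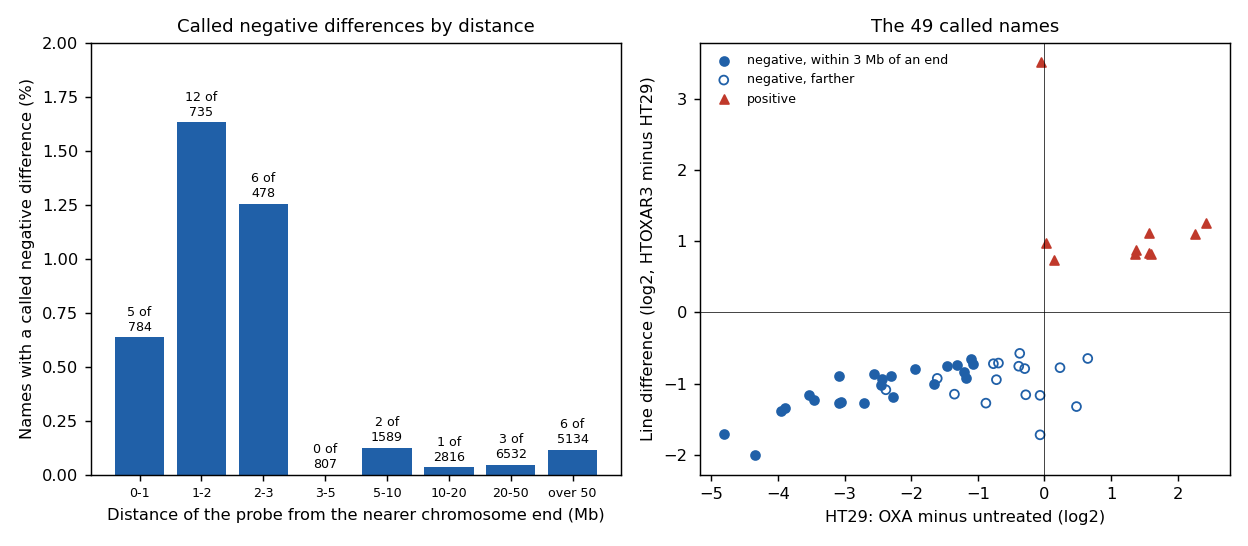
Left, share of names above background on all 12 arrays with a called negative line difference (vertical axis, %) by distance of the probe from the nearer chromosome end (Mb), with counts over the bars; the 3 bins nearest the ends reach 0.638% to 1.63%. Right, line difference (vertical axis, log2) of the 49 called names against the OXA minus untreated value in HT29 (horizontal axis, log2); negative differences near chromosome ends (filled blue) all lie at or below -1.08 on the horizontal axis.

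RefSeq windows from 250 bases before to 50 after the gene start (GRCh38.p14) were matched for 29 of the 39 negative and 7 of the 10 positive differences. The median GC content was 69.7% and the median number of CpG 33 for the negative differences, against 60.7% and 13 for the positive ones and 64.7% and 25 for 11557 names above background. With 7 positive windows no test was made, and single genes went against these medians in both directions, with 44 CpG in *RGCC* and 39 in *SAV1* among the positive differences and 5 in *SLC19A1* and 2 in *CLRN3* among the negative ones. The windows of the 3 most negative and the 2 most positive differences above background on all 12 arrays are shown with each CpG in capitals, to let the spread within each direction be seen: *SLC38A10* (28 CpG, chr17:81295258-81295557, minus strand), *SLC19A1* (5, chr21:45562976-45563275, minus), *CHLSN* (38, chr7:1028320-1028619, minus), *TRIM54* (2, chr2:27282179-27282478, plus) and *RGCC* (44, chr13:41457300-41457599, plus).
SLC38A10: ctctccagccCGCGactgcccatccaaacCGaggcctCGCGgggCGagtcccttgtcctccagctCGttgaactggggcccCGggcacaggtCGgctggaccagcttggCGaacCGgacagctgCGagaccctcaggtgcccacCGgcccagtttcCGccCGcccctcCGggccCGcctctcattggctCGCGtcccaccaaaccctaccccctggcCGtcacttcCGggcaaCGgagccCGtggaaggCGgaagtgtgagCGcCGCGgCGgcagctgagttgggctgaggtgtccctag
SLC19A1: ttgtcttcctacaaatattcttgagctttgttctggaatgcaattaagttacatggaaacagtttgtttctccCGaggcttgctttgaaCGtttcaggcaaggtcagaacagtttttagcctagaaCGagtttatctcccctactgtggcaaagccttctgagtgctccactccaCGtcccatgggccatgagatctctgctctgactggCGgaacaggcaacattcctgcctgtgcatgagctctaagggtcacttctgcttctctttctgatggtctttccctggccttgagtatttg
CHLSN: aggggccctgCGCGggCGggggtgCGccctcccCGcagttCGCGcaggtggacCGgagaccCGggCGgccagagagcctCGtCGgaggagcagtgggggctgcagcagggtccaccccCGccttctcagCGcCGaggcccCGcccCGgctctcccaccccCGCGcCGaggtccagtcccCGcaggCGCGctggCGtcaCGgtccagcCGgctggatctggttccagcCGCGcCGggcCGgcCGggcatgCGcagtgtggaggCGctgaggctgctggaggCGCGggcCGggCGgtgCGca
TRIM54: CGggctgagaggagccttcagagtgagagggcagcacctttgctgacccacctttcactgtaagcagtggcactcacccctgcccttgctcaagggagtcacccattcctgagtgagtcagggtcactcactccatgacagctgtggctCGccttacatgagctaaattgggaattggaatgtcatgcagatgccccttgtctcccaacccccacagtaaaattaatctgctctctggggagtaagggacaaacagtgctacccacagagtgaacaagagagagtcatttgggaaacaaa
RGCC: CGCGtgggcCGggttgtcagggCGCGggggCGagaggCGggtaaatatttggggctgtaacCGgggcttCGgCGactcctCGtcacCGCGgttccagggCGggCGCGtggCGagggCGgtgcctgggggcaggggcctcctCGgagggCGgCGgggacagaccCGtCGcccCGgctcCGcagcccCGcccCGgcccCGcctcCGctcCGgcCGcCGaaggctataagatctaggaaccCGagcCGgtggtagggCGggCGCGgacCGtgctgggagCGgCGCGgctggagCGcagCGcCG

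How many differences were called depended on the fit. In HTOXAR3, arrays of the same replicate number with OXA and with Curcumin lay on the same slide and deviated from their group means together (r from 0.109 to 0.195 across genes), while in HT29 2 of the 3 pairs shared a slide and r ran from 0.00762 to 0.0591. With the slide as a fixed block 34 differences were called, and with the number as a block within each line 10. In that last fit *TRIM54*, *RGCC*, *CHLSN*, *BOP1*, *CFAP410* and *PPP2R3B* kept their call (BY adjusted p in limma of 0.0495 or below), and the other 14 of the 20 differences described above with their values lost it, with BY adjusted p from 0.0597 (*FAAP100*, *SLC19A1* and *SLC38A10*) to 0.315 (*ALDH1L1*). Fitting the 12 arrays alone gave 5 calls. Leaving out 1 array at a time gave between 8 and 61 calls. Of the calls within a line, those of *SAV1*, *PPP2R3B*, *BOP1* and *CHLSN* in HTOXAR3 were lost in 14, 12, 11 and 9 of the 25 other settings. All 49 differences had the same sign within slide 2 and within slide 3 as over all arrays, which is a description only, since the names were chosen on these same arrays.

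Among the shared changes, 151 exceeded 2-fold in both lines, 144 of them rises. *HSPA6*, the strictly stress-inducible HSP70, had the largest rise in each line. It was 5.67, 5.70 and 5.42 in HT29 with OXA and 12.31, 12.42 and 11.88 with Curcumin, and 6.50, 6.61 and 6.47 against 12.82, 12.47 and 12.98 in HTOXAR3. These are 97.4-fold and 74.8-fold, both far outside the spread of the arrays, and the line difference of -0.38 ± 0.22 was not called (limma, unadjusted p = 0.103, BY adjusted p = 1).

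Of 25 heat shock genes tested, 5 rose in both lines, namely *HSPA6*, *HSPA1A*, *HSPA1B*, *DNAJB4* and *BAG3*, where 2.32% of all names did, and none fell in either. *HSPA1A*, the major inducible HSP70, rose by 1.30 in HT29 and 1.57 in HTOXAR3, though its probe may also read the near-identical *HSPA1B*. *BAG3*, a co-chaperone of HSP70, rose by 1.35 and 1.45. HTOXAR3 had 5 further rises, in *HSPH1*, *HSPB8*, *DNAJA4*, *DNAJB1* and *DNAJB6*, so 10 in all against 4.43% of all names, and none of the 25 had a called line difference. The median change of the list was 0.10 in HT29 and 0.21 in HTOXAR3, against -0.02 for all names in each line.

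The heat shock element was searched for as GAA, TTC and GAA with NN between each, on both strands of the promoter windows. It occurred in 5 of 23 windows of this list and in 0.487% of all 27305 windows. The 5 were *HSPA6*, *DNAJB6*, *DNAJA1*, *HSPA8* and *CHORDC1*, of which *HSPA6* rose in both lines, *DNAJB6* in HTOXAR3 and the other 3 in neither. *HSPA8* stood at 0.02 in HT29 and -0.02 in HTOXAR3, and *CHORDC1*, an HSP90 co-chaperone, at 0.02 and 0.04. The windows of *HSPA6* (chr1:161524290-161524589, plus, 1 match) and *CHORDC1* (chr11:90223000-90223299, minus, 3 overlapping matches) are shown side by side with matches in capitals.
HSPA6: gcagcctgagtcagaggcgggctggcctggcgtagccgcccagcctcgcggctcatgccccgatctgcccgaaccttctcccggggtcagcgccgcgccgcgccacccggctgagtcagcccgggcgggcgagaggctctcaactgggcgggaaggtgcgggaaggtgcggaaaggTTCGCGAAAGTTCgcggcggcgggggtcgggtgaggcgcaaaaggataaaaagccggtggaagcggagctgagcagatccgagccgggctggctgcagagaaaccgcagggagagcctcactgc
CHORDC1: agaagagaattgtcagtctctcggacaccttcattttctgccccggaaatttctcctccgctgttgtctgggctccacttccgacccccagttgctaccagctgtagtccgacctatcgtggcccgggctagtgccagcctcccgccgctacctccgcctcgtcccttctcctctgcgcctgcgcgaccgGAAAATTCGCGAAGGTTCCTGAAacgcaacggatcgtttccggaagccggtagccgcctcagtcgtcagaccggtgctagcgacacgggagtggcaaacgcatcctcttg

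Most NRF2 targets rose in both lines. Of 32 tested, 21 rose in HT29, 25 in HTOXAR3 and 20 in both, against 3.14%, 4.43% and 2.32% of all names, and none fell. *HMOX1*, heme oxygenase 1, was 10.00, 9.92 and 10.01 in HT29 with OXA and 12.68, 12.95 and 12.97 with Curcumin, and 10.92, 10.72 and 10.71 against 13.97, 13.73 and 13.85 in HTOXAR3. No array with Curcumin overlapped one without, and the rises were 7.41-fold and 8.37-fold with a line difference of 0.18 ± 0.16 that was not called (limma, BY adjusted p = 1). OXA alone had left *HMOX1* below untreated cells by 1.97 in HT29 and 1.86 in HTOXAR3.

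*AKR1C1*, a carbonyl-reducing aldo-keto reductase, rose from 10.29, 10.37 and 10.33 to 13.51, 13.41 and 13.15 in HT29 and from 7.37, 7.45 and 7.39 to 11.30, 11.37 and 11.41 in HTOXAR3. The line difference of 0.93 ± 0.27 was not called (BY adjusted p = 1), and near-identical family members may share its signal. *AKR1C8*, named AKR1CL1 on the array, rose by 2.83 and 3.81. Further shared rises were *CBR3*, a carbonyl reductase (2.31 and 1.85), *OSGIN1*, an oxidative stress-induced growth inhibitor (2.00 and 2.12), *FTL*, the ferritin light chain (1.19 and 1.68), *SQSTM1*, the autophagy receptor p62 (0.89 and 1.17), and *NQO1*, a quinone reductase (0.59 and 0.76). *SLC7A11*, the cystine importer, rose by 1.15 in HT29 and 0.56 in HTOXAR3, an uncalled difference of -0.59. The list's median was 0.57 in HT29 and 0.61 in HTOXAR3.

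The antioxidant response element, searched for as TGACNNNGC on both strands, occurred in 6 of 22 windows of this list and in 13.6% of all windows. *ME1*, malic enzyme that makes NADPH, rose in both lines by 0.86 and 1.04 and had 2 matches, shown in capitals (chr6:83431002-83431301, minus).
ME1: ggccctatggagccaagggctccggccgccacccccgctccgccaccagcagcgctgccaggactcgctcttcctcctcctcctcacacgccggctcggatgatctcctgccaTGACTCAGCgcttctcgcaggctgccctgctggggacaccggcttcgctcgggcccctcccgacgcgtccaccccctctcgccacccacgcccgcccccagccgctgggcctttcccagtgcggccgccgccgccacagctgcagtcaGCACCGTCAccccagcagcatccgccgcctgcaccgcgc

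Outside the lists, *SDCBP2* (syntenin 2, a PDZ domain protein) rose by 3.47 in HT29 and 4.24 in HTOXAR3 and *SYNPO* (synaptopodin, which binds actin) by 2.86 and 3.25. Genes of the ATF4 and unfolded protein response shared 13 rises of 39 tested, against 2.32% of all names, and no fall. *DNAJB9*, an endoplasmic reticulum co-chaperone, rose by 1.79 and 1.64, *DDIT4*, an inhibitor of mTORC1, by 1.85 and 1.32, and *CHAC1*, which degrades glutathione, by 1.34 and 1.06. Apart from these, *PSPH*, *PHGDH* and *SHMT2*, enzymes of serine and glycine synthesis in the same list, fell in HTOXAR3 (-0.47, -0.35 and -0.39) without a call in HT29 or in the line difference. These 3 of 39 tested are to be read against 4.41% of all names and 1549 of the 19013 names above background.

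Of 25 p53 targets 6 rose in HT29 and 4 of these in both lines, where 3.14% and 2.32% of all names did. The 2 that fell in HTOXAR3, *FAS* and *FDXR* (-0.52 and -0.50), are to be read against 4.41% of all names and 1549 of the 19013 above background. The list's median was 0.10 in HT29 and -0.06 in HTOXAR3, and none had a called line difference. *CDKN1A*, the CDK inhibitor p21, went from 5.40, 5.22 and 5.23 to 7.35, 7.57 and 7.29 in HT29 and from 6.69, 6.73 and 6.46 to 8.15, 8.14 and 8.38 in HTOXAR3, with no overlap of the groups. The others were *GADD45A* (0.96 and 0.69), *PHLDA3* (0.54 in each line) and *PLK3* (0.64 and 0.42). *BBC3* and *PMAIP1*, which promote apoptosis, rose in HT29 by 0.58 and 0.40 and stood at an uncalled 0.28 and -0.24 in HTOXAR3. *MDM2*, the p53 ubiquitin ligase, stood at -0.08 and -0.18 and was not called. For the next 3 lists the share of all names was 2.32% for shared rises and 1.56% for shared falls. In the hypoxia and glycolysis list, *NDRG1* rose by 2.61 and 2.74 and *ADM* (adrenomedullin) by 1.72 and 1.90, *ENO2* fell by 0.64 and 0.69, and the other 24 had no shared call. Sterol synthesis shared 4 rises of 31, with *INSIG1* at 0.83 and 1.00, *HMGCS1* at 0.49 and 0.80 and *IDI1* at 0.44 and 0.73, and 1 fall, in *PMVK*, against 3 shared changes on the 12 arrays alone. Of 21 immediate early genes 3 rose in both lines, *ZFP36* (0.89 and 0.79), *DUSP5* (0.66 and 0.78) and *IER5* (0.36 and 0.53), whose HT29 call was lost in 16 of the 25 other settings.

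**Figure D4:**
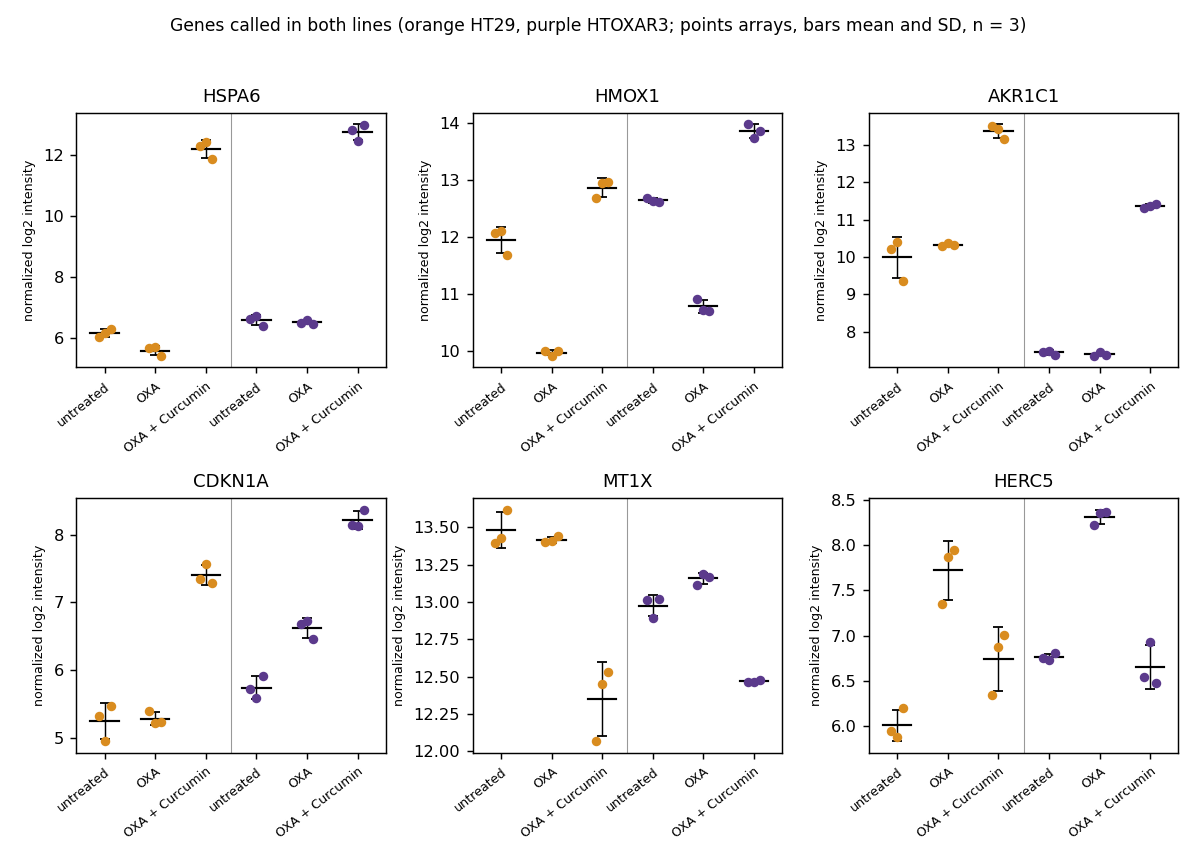
Normalized log2 intensity (vertical axes) of 6 genes called in the same direction in both lines, in the 6 groups, HT29 in orange and HTOXAR3 in purple; points are the 3 arrays of a group and bars the mean and SD. HSPA6, HMOX1, AKR1C1 and CDKN1A were higher and MT1X and HERC5 lower with Curcumin than with OXA alone on every array of both lines.

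Shared falls were smaller than shared rises, with 7 over 2-fold in both lines. The largest by the mean of the lines were *RASL10B*, a small GTPase (-1.28 in HT29 and -1.47 in HTOXAR3), *HERC5*, the main ligase for ISG15 (-0.98 and -1.66), *AIF1L*, an actin-binding protein (-1.05 and -1.28), *IL27RA*, a cytokine receptor (-0.89 and -1.41), *PLAU*, urokinase (-1.24 and -0.99), and *REEP2*, a shaper of the endoplasmic reticulum (-0.75 and -1.46). All 6 had stood above their untreated level with OXA alone in both lines, except *AIF1L* in HTOXAR3 (-0.09). None had a called line difference.

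Of 40 DNA replication genes tested, 25 fell in HT29, 18 in HTOXAR3 and 14 in both, against 2.39%, 4.41% and 1.56% of all names, and none rose. On the 12 arrays alone 7 fell in both. *MCM7*, a helicase subunit, was 17.31, 17.31 and 17.35 in HT29 with OXA and 16.66, 16.73 and 16.81 with Curcumin, and 17.19, 17.23 and 17.24 against 16.53, 16.65 and 16.50 in HTOXAR3. *POLA1* and *POLD3*, polymerase subunits, fell by 0.61 and 0.41 in HT29 and by 0.62 and 0.59 in HTOXAR3. The list's median was -0.40 in HT29 and -0.30 in HTOXAR3. Genes of G2 and mitosis had 3 falls in HT29 and 15 in HTOXAR3 out of 34, but 2 in both (*CDK1* and *KIF23*) and none with a called line difference, with a median line difference of -0.14. Over all names the falls were 2.39% in HT29, 4.41% in HTOXAR3 and 1.56% in both. The HT29 calls of these 2 were lost in 8 and 12 of the 25 other settings, and on the 12 arrays alone 0 were shared. Ribosome biogenesis genes had 2 shared falls of 35, against the same 1.56%, in *FBL* (fibrillarin, -0.46 and -0.35) and *NOP14* (-0.46 and -0.33), against 1 shared change on the 12 arrays alone, and a median line difference of 0.13, opposite in sign to that of their member *BOP1*.

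Metallothioneins are small proteins that bind zinc and copper and are known to bind platinum. Of 10 genes in the list of metallothioneins and zinc genes, 7 fell in both, 8 in HT29 and 7 in HTOXAR3, where 1.56%, 2.39% and 4.41% of all names did, and the line difference was above 0 for all 10 (median 0.28, none called). *MT1X* was 13.40, 13.41 and 13.44 in HT29 with OXA and 12.07, 12.45 and 12.53 with Curcumin, and 13.12, 13.19 and 13.17 against 12.46, 12.47 and 12.48 in HTOXAR3. *MT1G* fell by 1.14 and 0.91 and *MT1M* by 1.04 and 0.67, and probes of this family may read near-identical members. *MT1F* fell in HT29 alone, *MT1H* was called in neither line, and *SLC30A1*, the zinc exporter, rose by 0.38 in HTOXAR3. The metal response element, searched for as TGCNCNC on both strands, is short and occurred in 55.2% of all windows and in 5 of the 5 windows matched for this list. *MT2A*, which fell by 1.00 in HT29 and 0.57 in HTOXAR3, had 8 matches, in capitals (chr16:56608334-56608633, plus).
MT2A: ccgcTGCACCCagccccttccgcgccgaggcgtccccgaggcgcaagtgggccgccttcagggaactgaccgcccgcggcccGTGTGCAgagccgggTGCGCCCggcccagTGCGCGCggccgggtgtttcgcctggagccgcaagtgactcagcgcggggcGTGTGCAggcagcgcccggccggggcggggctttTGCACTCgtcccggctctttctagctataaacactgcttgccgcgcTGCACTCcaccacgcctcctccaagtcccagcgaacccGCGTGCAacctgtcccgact

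Interferon-stimulated genes, antiviral genes that interferon turns on, had uneven calls. Of 35 tested, 3 fell in HT29 and 13 in HTOXAR3, of which 10 were not called in HT29, where 2.39% and 4.41% of all names fell. Rises were called for 4 in HT29 and 2 in HTOXAR3, where 3.14% and 4.43% of all names rose. *IFIT1*, an RNA-binding antiviral protein, stood at -0.61 in HT29 and -1.32 in HTOXAR3, *OAS2*, an oligoadenylate synthetase, at -0.17 and -1.01, and *RIGI*, a sensor of viral RNA, at -0.14 and -0.69. *IFI44L* stood at -0.08 and -1.49, with its probe above background on 9 of the 12 arrays. *HERC5*, *IFI44* and *OAS3* fell in both lines, and *IRF7* and *STAT2*, transcription factors of this pathway, rose in both. On the 12 arrays alone 2 changes of the list were called in both lines, and the HT29 calls of *HERC5* and *IFI44* were each lost in 6 of the 25 other settings.

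The line difference itself was negative for 31 of the 35, with a median of -0.28 against 0.01 over all names, and 17 had an unadjusted p below 0.05. Over all 36203 names, 18450 line differences were above 0 and 3526 had an unadjusted p below 0.05 in limma. None of the 35 was called. The smallest BY adjusted p in limma was 0.201, for *ISG15* (-0.44). *IFI44*, for which all arrays are given, went from 9.67, 9.90 and 9.90 to 8.92, 9.42 and 9.25 in HT29 and from 10.61, 10.63 and 10.67 to 9.33, 9.59 and 9.30 in HTOXAR3. Neither line's groups overlapped, and the line difference was -0.60 ± 0.16 (BY adjusted p = 1).

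**Figure D5:**
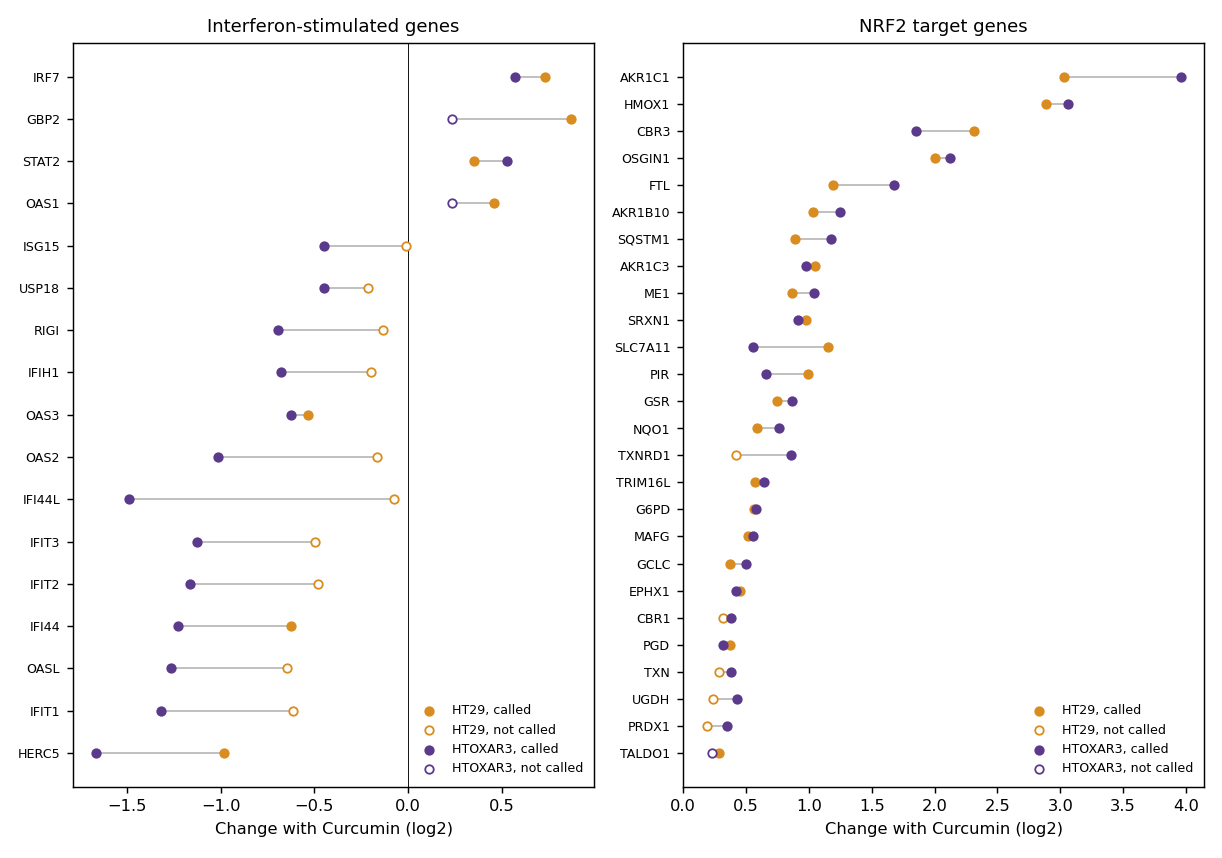
Log2 change with Curcumin (horizontal axes) of the 17 interferon-stimulated genes (left) and 26 NRF2 targets (right) called in at least 1 line, in HT29 (orange) and HTOXAR3 (purple); filled points were called in that line, open points were not, and a grey line joins the values of a gene. For 16 of these 17 interferon-stimulated genes the HTOXAR3 point lies to the left of the HT29 point, while no NRF2 target was called below 0 in either line.

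NF-kB is a transcription factor of inflammation and survival that the study examined as a target of Curcumin, and CXC chemokines are among its best known targets. Of 49 NF-kB targets and feedback genes, 2 rose and 5 fell in HT29, 4 rose and 7 fell in HTOXAR3, and 2 rises and 3 falls were shared, where 2.32% and 1.56% of all names were. In HT29 3.14% of all names rose and 2.39% fell, and in HTOXAR3 4.43% rose and 4.41% fell. Among the 19013 names above background on all 12 arrays these were 1077, 862, 1529 and 1549. On the 12 arrays alone 2 changes of the list were shared. *SOD2*, the mitochondrial superoxide dismutase, rose by 0.82 and 0.59, and *PLAU*, *CD83* and *NFKB1* fell in both lines. The list's median line difference was 0.03, and none of the 49 was called.

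*CXCL1* was 12.39, 12.31 and 12.28 in HT29 with OXA and 12.06, 12.13 and 12.40 with Curcumin, and 12.38, 12.24 and 12.22 against 11.66, 11.52 and 11.55 in HTOXAR3. The groups overlapped in HT29 (-0.13 ± 0.13, not called) and not in HTOXAR3 (-0.70 ± 0.13, BY adjusted p = 0.0221 in limma), while the line difference of -0.57 ± 0.19 was not called (unadjusted p = 0.0098, BY adjusted p = 1). *CXCL2* gave 0.37 in HT29 and -0.26 in HTOXAR3, a difference of -0.63 ± 0.18 (unadjusted p = 0.00385 in limma, BY adjusted p = 1). *CXCL3* and *CXCL8* gave differences of -0.36 ± 0.23 and -0.45 ± 0.29. The *CXCL1* call in HTOXAR3 was lost in 8 of the 25 other settings, 6 of them fits without 1 array. All 4 chemokine differences were negative in each of the 25 other settings and called in none of them.

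The remaining lists each had 1 shared rise, where 2.32% of all names rose in both lines. Of 8 targets of the aryl hydrocarbon receptor, *NQO1* alone was shared, while *CYP1A1* and *CYP1B1*, cytochromes that oxidize aromatic compounds, rose in HT29 (1.07 and 0.48) and stood at 0.41 and -0.02 in HTOXAR3 with uncalled differences of -0.66 and -0.49. In this list 3 rose in HT29, and 1 rose and 1 fell in HTOXAR3, where 3.14%, 4.43% and 4.41% of all names did. Of 15 genes of drug and platinum transport, *SLC31A2*, a copper transporter, rose by 0.29 and 0.39, and its HT29 call was lost in 17 of the 25 other settings. The copper importer *SLC31A1* stood at 0.05 and -0.04 and the exporters *ATP7A* and *ATP7B* at 0.48 and -0.23 in HT29 and 0.11 and -0.28 in HTOXAR3, none called.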

How the data were processed

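The series holds 18 human Agilent arrays of 1 colour, and the comparison uses the 12 with OXA or OXA plus Curcumin. The authors deposited the scanner output, whose spot mean and local background intensity are linear and not normalized between arrays, and a table of log2 values after their own processing, whose lines carry no names and which served for counts only. Per the study's methods and the submitters' processing notes, limma was used there with normexp, quantile normalization and a false discovery rate.

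From the intensities, normexp (offset 0), log2 and quantile normalization were run on the non-control spots in limma 3.58.1 (R 4.3.3); spots flagged as outliers were left out, spots of a probe were averaged, and the brightest probe stood for a gene name. One model with 6 groups was fitted on the 18 arrays, so the untreated arrays add to the estimate of spread. With 3 arrays a group, p-values measure the spread between cultures labelled as biological replicates. Calls needed a BY adjusted p below 0.05 over all 36203 names and a fold over 1.2. Names were updated through RefSeq (accessions gave 21094, current symbols 1228 and former symbols 275, and 13606 kept the array's name). Members, the 15 lists and the tests were chosen with earlier results of these data known. The genes named are the 10 most positive and 10 most negative called differences and the 6 largest shared rises and falls, all above background on the 12 arrays, up to 3 shared members of each list, and *CXCL1*, *CXCL2*, *CXCL3*, *CXCL8* and *HMOX1*; others were named after their values were seen. Positions are the hg19 coordinates of the probes. The fits were tested on simulated data. Alternatives changed the background correction, scaling, probe choice, filter, adjustment, fold minimum, arrays fitted and blocks. The number of arrays limits the precision.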

Additional observations from a re-analysis of the deposited data

Results flagged for a closer look

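The effect of adding Curcumin differed between HT29 and HTOXAR3, by limma's test of the line difference itself, for 49 gene names. All values below are log2 line differences, HTOXAR3 minus HT29.

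The 10 positive differences were *TRIM54* at 3.51, *RGCC* at 1.26, *KPNA7* at 1.11, *RNF39* at 1.10, *WNT11* at 0.97, *HOXC9* at 0.88, *SAV1* at 0.84, *PTPRH* at 0.83, *SEMA3B* at 0.82 and *ZNF283* at 0.73.

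Of the negative differences, 23 had a probe within 3 Mb of a chromosome end in hg19. They were *SLC38A10* at -2.00, *SLC19A1* at -1.71, *CHLSN* at -1.39, *ARFRP1* at -1.34, *FAAP100* and *CFAP410* at -1.27 each, *HAGHL* at -1.25, *BOP1* at -1.23, *PPP2R3B* at -1.18, *PWWP3A* at -1.16, *SLX9* at -1.02, *FAAP20* at -1.00, *NKD2* and *GRTP1* at -0.93 each, *SLC33A2* at -0.90, *THOP1* at -0.89, *DHRSX* at -0.87, *CTBP1* at -0.83, *MRPL12* at -0.80, *BRF1* at -0.75, *SSU72* at -0.73, *RPTOR* at -0.72 and *PRKCZ* at -0.66.

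The other 16 negative differences lay farther from an end. *COL8A1* stood at -1.72, *APOBEC3C* at -1.32, *ALDH1L1* at -1.27, *FBXO15* and XLOC_003821 at -1.16 each, *CLRN3* at -1.15, a transcript known by its probe A_33_P3285769 at -1.09, *CHRM2* at -0.94, *ANK3* at -0.93, *PC* at -0.79, *TGFBI* at -0.78, *HSD17B2* at -0.76, *DGCR2* at -0.72, *RABGAP1L* at -0.71, *WWC3* at -0.65 and the transcript ENST00000299350 at -0.57. *COL8A1* was above background on none of the HT29 arrays, *APOBEC3C* on 1 of the 3 HT29 arrays with Curcumin, *FBXO15* on 8 of the 12 arrays and XLOC_003821 on 0, so these values rest wholly or in part on signals not above background.

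These values rest on the brightest probe of each name. For 15 of the 49 names another probe was also above background on all 12 arrays, 21 such probes in all, and 2 of them had the opposite sign, at 0.12 for *BRF1* and 0.17 for *PRKCZ*. Other probes gave -0.12 for *SLC38A10*, -0.08 for *ARFRP1*, -0.23 for *PWWP3A*, -0.13 for *NKD2*, -0.12 for *FAAP20* and -0.16 and -0.07 for *RABGAP1L*. For some of these names a further probe lay nearer the printed value, at -0.64 for *FAAP20* and -1.13 for *ARFRP1*, and 2 further *RABGAP1L* probes gave -0.71 and -0.67.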

How the results depend on the processing

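The line difference was called for 49 names. It was called for 79 with normexp offset 16, 181 with offset 50, 139 without dim probes, 323 with Benjamini-Hochberg adjustment, 22 with a 2-fold minimum and 5 on the 12 arrays alone (*APOBEC3C*, *BOP1*, *CHLSN*, *RGCC* and *TRIM54*). The authors' log2 table, chosen after seeing the data, gave 146. The replicate block gave 10 with numbers paired within each line and 31 with numbers shared by both lines. Deviations of same-numbered arrays correlated at 0.109 to 0.195 in HTOXAR3, where each array correlated best with its own number and shared its slide, and at 0.00762 to 0.0591 in HT29, where this did not hold. The numbers were therefore not taken as pairs over both lines, and the adjusted p-values by gene leave out what HTOXAR3 arrays of one number share. The count stayed between 33 and 70 under both other scalings, the mean of all probes, each probe on its own and both slide blocks. Changes in HT29, HTOXAR3 and both were 1045, 1990 and 735 on the 12 arrays alone, 3702, 5125 and 2461 with Benjamini-Hochberg adjustment, and 220, 363 and 151 with a 2-fold minimum. Leaving out 1 array at a time gave 8 (without HTOXAR3 OXA plus Curcumin replicate 1) to 61 line differences (without HT29 OXA plus Curcumin replicate 1), 1210 to 1809 changes in HT29, 1968 to 3251 in HTOXAR3 and 923 to 1259 shared. The other 10 arrays each gave 9 to 29 line differences when left out. The cause of these shifts was not tested. In the settings with 1 value per name the 49 kept their sign, except 1 under the processed signal, but another probe of *BRF1* and of *PRKCZ* had the opposite sign. Scaling by the 75th percentile moved the median change of all names in HTOXAR3 from -0.02 to 0.09 with the processed signal and to -0.14 with normexp.

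Among the 165 values compared for named genes, signs turned for 4 uncalled changes near 0. Without 1 array, *ALDH1L1* in HT29 ran from -0.19 to 0.072, *CXCL3* in HTOXAR3 from -0.054 to 0.098, *SEMA3B* in HT29 from -0.014 to 0.097 and *TRIM54* in HT29 from -0.014 to 0.13. *SEMA3B* in HT29 was -0.00031 with the processed signal. Slide 1 held HT29 arrays alone. Signal over background limits *COL8A1*, *FBXO15* and *APOBEC3C*, which were not well above background on every array.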
